A study of Mus musculus with 16 samples.

Results

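Confluent VEC-positive endothelial cells were compared with sparse cells of the same line, where VEC is VE-cadherin, the cadherin of endothelial junctions, encoded by Cdh5. The members are the arrays that the labels name VEC_positive_sparse and VEC_positive_confluent on the chips MG_U74Av2 (chip A) and MG_U74Bv2 (chip B), which makes 8 of the 16 arrays of the series. The other 8 arrays hold the same 2 densities of VEC-null cells and are used to show where the VEC-positive cells differ. Both lines are described as mouse endothelial cells grown out of embryonic stem cells that are homozygous for a null mutation of the VE-cadherin gene, and all groups, the sparse controls included, were starved for 36 h in a medium with bovine serum albumin before RNA was taken. How the VEC-positive cells regained VEC, whether they are 1 clone, and at what number of cells a culture counted as sparse or confluent could not be learned from the labels. Per the labels, 1 labelled cRNA sample per condition, made from 15 µg of total RNA, went onto 2 copies of either chip. The copies are technical, so that each test below compares 2 cRNA samples against the spread between hybridisations and leaves out how cultures vary. The study's stated aim was to find genes that rise when VEC is present and gathered at junctions, which is the state of the confluent VEC-positive cells.

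Endothelial cells that touch their neighbours assemble adherens junctions, built from VE-cadherin and catenins, and tight junctions, built from claudins, occludin and junctional adhesion molecules. Contact is known to restrain growth factor signalling and motility, to keep the mechanosensitive coactivators YAP and TAZ out of the nucleus, and to go with a quiescent, barrier-forming state. Sparse endothelial cells are spread and migratory and resemble the edge of a wound.

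Each value is a MAS5 signal, a linear intensity in arbitrary units which the authors' software brought to a common target of 500 on every array, and 2 values given together are the 2 array copies. A change is the difference of log2(signal + 50) between confluent and sparse cells, and the offset of 50 makes it understate the change of dim genes. A gene was called higher or lower at a change of at least 1 on that log2 scale and an adjusted p below 0.05 in limma (Benjamini-Hochberg over 14246 probe sets), and "rose" and "fell" are used of called genes only. A gene was tested if at least 1 of the 4 groups was brighter than the median probe set of its chip, so that genes bright in a single group are among those tested by construction.

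On chip A the copies of a condition correlated at r 0.989 for sparse and 0.988 for confluent VEC-positive cells, while arrays of different density correlated at 0.930 to 0.936. On chip B these values were 0.951 and 0.969, against 0.892 to 0.898. Control signals for Gapdh and actin were lower on confluent than on sparse VEC-positive arrays. For Gapdh they were 12920 and 12788 against 18938 and 19415 on chip A, and 29270 and 28590 against 52469 and 55583 on chip B. For actin they were 19212 and 19634 against 23086 and 24349 on chip A, and 39700 and 44001 against 64156 and 69054 on chip B. The 3' to 5' ratio of the Gapdh probe sets, which grows as RNA degrades, was 1.23 and 1.14 on confluent and 1 and 0.994 on sparse arrays of chip B. On chip A it was 1.01 and 0.968 on confluent and 0.903 and 0.938 on sparse arrays. The same ratio for actin was 1.21 and 1.28 on confluent and 1.31 and 1.26 on sparse arrays of chip B. On chip A the actin ratio was 1.33 and 1.26 on confluent and 1.11 and 1.25 on sparse arrays. Whether RNA quality played a part in any change below was not tested. Of the markers that define endothelium, Kdr, Flt1, Tek, Tie1, Icam2, Cdh5, Emcn, Eng and Cd34 were above the median signal of chip A in confluent VEC-positive cells, while Pecam1 was dim, with signals of 132 and 104 on sparse and 73.6 and 243 on confluent arrays. Cdh5 itself gave 1464 and 1334 when sparse and 2607 and 2526 when confluent, and the change of 0.85 (SE 0.09, limma adjusted p 3.8e-05) did not reach the fold threshold. In VEC-null cells the same probe set gave 1255 and 1282 when sparse and 2707 and 2509 when confluent, so it does not check the labels of the lines.

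Between the densities of VEC-positive cells 1469 of 9207 tested genes changed, which is 16% of them. Of these, 795 rose (8.63% of the genes tested) and 674 fell (7.32%), and the median over all tested genes was 0.04 on the log2 scale. The counts of list members below are to be read against these shares, and a count near them does not set a list apart. The copies of the 2 densities did not overlap for 7055 genes (76.6%), so that a lack of overlap by itself says little here. They did not overlap for any called gene named below. The 15 largest rises were those of Cldn5, Col23a1, Gpr182, Nts, Ushbp1, Vwf, Pde2a, Gem, Gria2, Oasl2, Sox18, Stab1, Slfn2, Tmem86a and Ifit1. The 15 largest falls were those of Msln, Fst, Cobl, Dusp5, Fdps, Bdnf, Krt19, Ccn2, Ankrd1, Idi1, Plaur, Msmo1, Ptgs2, Ccn1 and Wwc1.

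**Figure D1:**
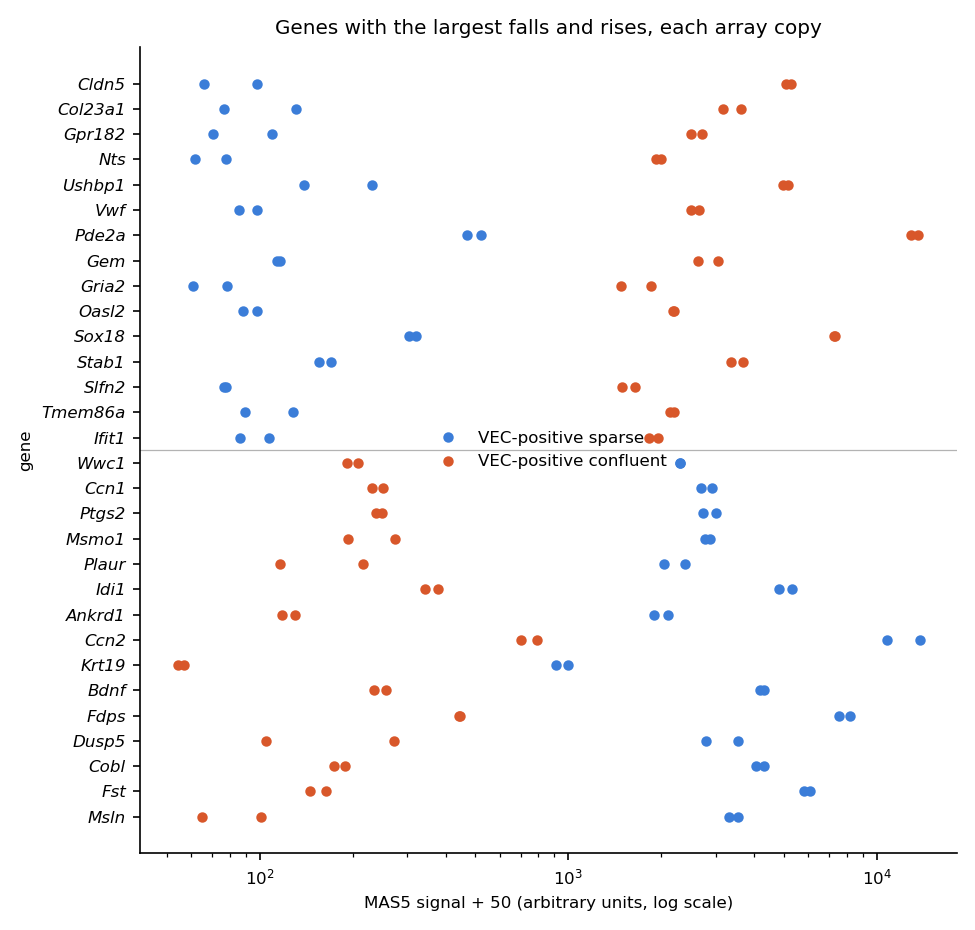
MAS5 signal plus 50 (log axis) of the 15 genes with the largest rises, above the line, and the 15 with the largest falls, below it, in VEC-positive cells. Each point is 1 array copy, 2 for sparse and 2 for confluent cells, and the sparse and confluent points of each gene stand apart, for Cldn5 with signals of 47.8 and 16 against 5222 and 5008.

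The marker genes of the comparison lay at the extremes of this range. Cldn5, the claudin that seals endothelial tight junctions, was below the median signal of chip A in sparse cells and far above it in confluent cells. Its signal was 47.8 and 16 when sparse and 5222 and 5008 when confluent, which is a change of 6.01 (SE 0.27, limma adjusted p 1.5e-07). Pde2a, the phosphodiesterase that is stimulated by cyclic GMP and degrades both cyclic nucleotides, already had a measurable level in sparse cells. It gave 419 and 471 when sparse and 13524 and 12832 when confluent (log2 change 4.74, SE 0.10, limma adjusted p 3.4e-09), and its other probe set gave 5.31. Msln, mesothelin, a surface protein of mesothelial cells, went the other way, from 3268 and 3503 to 51.2 and 15.2 (log2 change -5.40, SE 0.19, limma adjusted p 3.6e-08). The confluent Msln copies were below 159.4, the median signal on chip A that served as the filter, so the size of the fall depends on the offset.

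Among the other large rises were genes of several kinds. Col23a1, a transmembrane collagen, rose from 26.8 and 80.9 to 3576 and 3132. Nts, the precursor of the peptide neurotensin, rose from 11.8 and 27.6 to 1867 and 1948. Gem, a small GTPase that restrains calcium channels, rose from 66.3 and 64.2 to 3010.5 and 2583. Their log2 changes were 5.08, 4.82 and 4.62. Gria2 encodes an AMPA-type glutamate receptor subunit and was dim when sparse, at 10.8 and 28.1, and at 1435 and 1806 when confluent (log2 change 4.59). Stab1, a scavenger receptor of sinusoidal and lymphatic endothelium, rose from 121 and 106 to 3315 and 3644 by its representative probe set (log2 change 4.43), but a second probe set on chip B gave 337.5 and 678 against 477 and 530.3, a change of 0.06. The signal of Slfn2, a schlafen family gene, was 26.4 and 28 when sparse and 1599.9 and 1447 when confluent (log2 change 4.35). Among the falls, Bdnf, a neurotrophin, went from 4255 and 4143 to 206 and 185 (log2 change -4.11). Cobl, an actin nucleator, went from 4256 and 4019.7 to 139 and 124 by its representative probe set (log2 change -4.53), whereas its other probe set gave -0.34 and was not called.

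Endothelial identity genes rose as a group, with 22 of 37 tested members higher, 0 lower and 15 not called, and the list had a median of 1.46 against 0.04 over all tested genes. The summed signal of the 40 members on the arrays was 55644 and 51620 in sparse and 141888 and 137523 in confluent cells. Fewer endothelial cells and less endothelial RNA per cell cannot be told apart in such bulk samples. The changes of the 22 ran from 1.17 to 4.89, with limma adjusted p of at most 0.00045. Several members were dim when sparse. Sox18, a transcription factor of blood and lymphatic endothelium, had 255 and 270.5 when sparse and 7248 and 7228 when confluent (log2 change 4.54). Vwf, the clotting and platelet adhesion factor stored in endothelial granules, had 48.2 and 36 when sparse and 2594 and 2439 when confluent (log2 change 4.80). The endothelial receptor gene Gpr182 had 59.7 and 20.4 when sparse and 2448 and 2654 when confluent (log2 change 4.89). Rasip1, a Ras and Rap interactor needed for vessel lumens, rose from 182 and 167 to 4124 and 3973 (log2 change 4.19). Mmrn2, an endothelial matrix glycoprotein, reached one of the brightest confluent levels of the list, 11893 and 11025 against 921 and 1278 (log2 change 3.34). Clec14a, a lectin of vessel surfaces, gave 47.7 and 229 when sparse and 1659.5 and 2078 when confluent. Its log2 change of 3.53 was 2.77 without the first sparse copy and 4.29 without the second. The members that were not called included several that were bright at both densities. Emcn, endomucin, gave 8041 and 7629.5 when sparse and 8098 and 7869 when confluent (log2 change 0.03). Cd34 gave 3342 and 3708 when sparse and 3453 and 3154 when confluent (-0.09), and Eng, the TGF-beta coreceptor endoglin, gave 8962 and 7015 when sparse and 7643 and 7648 when confluent (-0.05). The list also rose in VEC-null cells, where 26 of the 37 were higher and 0 lower, with a median of 1.75, against 9.23% of all tested genes higher. The test of the difference between the lines called 5 members more upwards in VEC-positive cells and 6 more downwards.

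**Figure D2:**
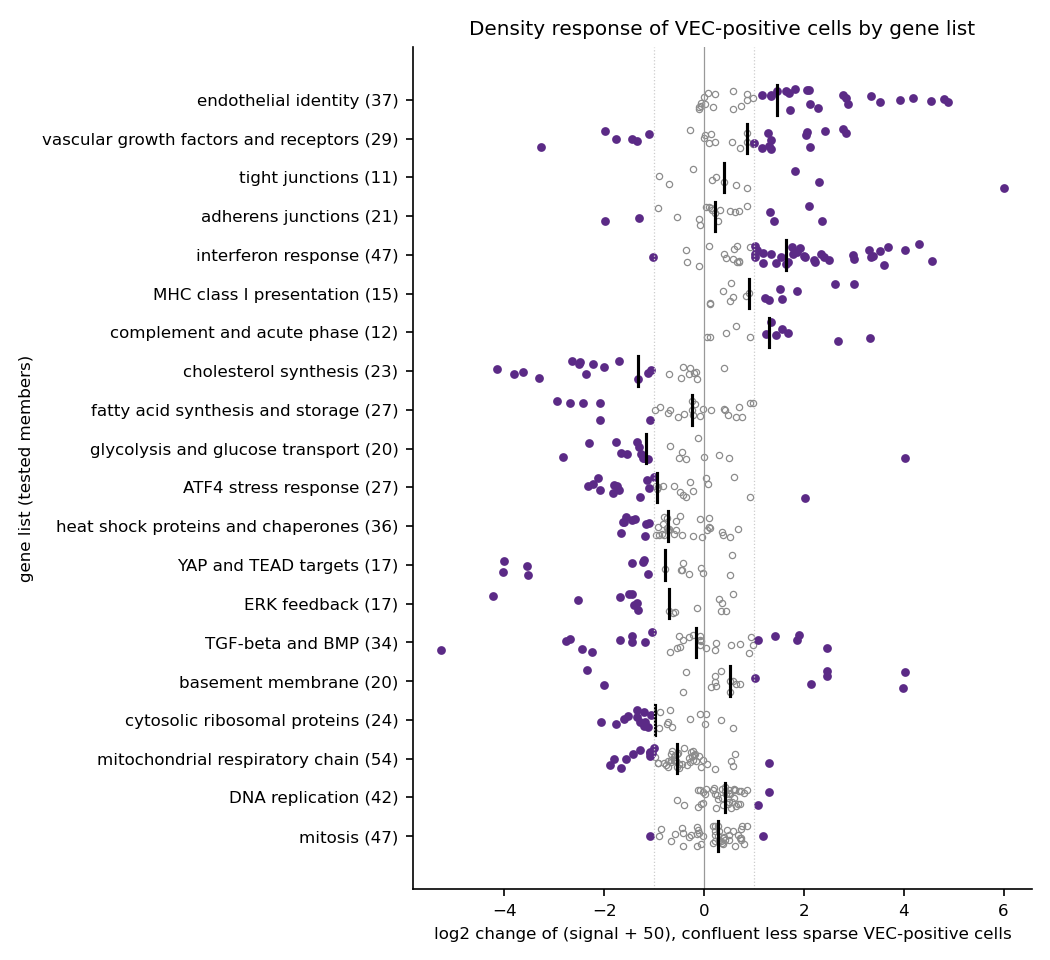
Change between confluent and sparse VEC-positive cells, as the difference of log2(signal + 50), of every tested member of 20 gene lists, 1 point a gene. Filled points were called, open points were not, black bars are list medians and dotted lines mark a change of 1; the medians run from 1.64 for the interferon response to -1.32 for cholesterol synthesis.

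Receptors of the VEGF and angiopoietin families rose, and ligands went both ways. In the list of vascular growth factors and receptors 12 of 29 tested members rose and 6 fell, with a median of 0.86. With an offset of 200 the counts were 6 and 3. Kdr, the main signalling receptor for VEGF-A, went from 257 and 322 to 2337 and 2195 (log2 change 2.78). Flt1, its decoy, went from 186 and 174 to 516 and 425 (1.17), and Flt4, the receptor for VEGF-C, went from 1397 and 1393 to 3675 and 3572 (1.35). The semaphorin and VEGF coreceptor Nrp1 rose from 1255 and 1195 to 5108 and 5264 (2.04). Plxnd1, a semaphorin receptor of endothelium, rose from 1819 and 1218 to 8313 and 8052 (2.42). Tek, the receptor for angiopoietins, rose from 242 and 223 to 2078 and 1886 (2.85), as did its partner Tie1 (2.13). Vegfc, the ligand of Flt4, rose from 119 and 59.3 to 279 and 288 (1.30). Angpt2, the angiopoietin that loosens vessels, fell from 313 and 179 to 50.6 and 61.7 (-1.44), which was -0.78 with an offset of 200. Sema3c, a secreted semaphorin, fell from 737 and 621 to 13.1 and 41.1 (-3.26). Hbegf, a ligand of the EGF receptor, fell from 1448 and 1417 to 332 and 315 (-1.99), and the HGF receptor gene Met fell from 2854 and 2670 to 792 and 766 (-1.76). Efnb2, an arterial ephrin, was level at 2010 and 2033 when sparse and 1979.9 and 2077 when confluent (0.0).

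Vessel tone genes went both ways. Ramp2 and Calcrl, which together make the receptor for adrenomedullin, both rose. Ramp2 went from 1011 and 1060 to 9815 and 9868 (log2 change 3.19) and Calcrl from 56 and 108 to 736 and 648 (2.52). Ptgs2, the inducible cyclooxygenase, fell from 2683 and 2952 to 189 and 199 (-3.56). Edn1, the precursor of the vasoconstrictor endothelin, fell from 856 and 981 to 224 and 199 (-1.89). Ddah1, which clears an inhibitor of nitric oxide synthase, fell from 1679 and 1748 to 237 and 225 (-2.65). Nos3, endothelial nitric oxide synthase, was at 3324 and 3542 when sparse and 4430.1 and 4584 when confluent without being called (0.39). In all 4 of 15 tested members rose, 3 fell and the median was 0.22.

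Clotting genes also divided, with 4 of 13 tested members higher, 3 lower and a median of 0.32. Besides Vwf, F8 rose, which encodes the clotting factor that von Willebrand factor carries in blood. Its signal was 178 and 191 when sparse and 3980.1 and 3349 when confluent (log2 change 3.98, SE 0.12, limma adjusted p 1.4e-08). Pros1, the anticoagulant protein S, rose from 827 and 861 to 2895 and 2310.5 (1.56), and its homologue Gas6, a ligand of TAM receptors, rose from 226 and 173 to 1149 and 1332 (2.38). Plaur, the urokinase receptor, which localises proteolysis at the cell front, fell from 1988 and 2334 to 166 and 66.2 (-3.80). Procr, the endothelial receptor for protein C, fell from the very bright 13615 and 15800 to 5409 and 5332 (-1.44).

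Junction genes other than Cldn5 changed less. Among 11 tested tight junction genes 3 rose, 0 fell and the median was 0.40, and without the first sparse copy or without the first confluent copy 1 further gene was called lower. Jam3, a junctional adhesion molecule, rose from 212 and 304 to 1538 and 1381 (log2 change 2.31). Esam, an adhesion molecule of endothelial tight junctions, rose from 1907 and 1895 to 6887 and 6759 (1.82). The scaffold gene Tjp1, which encodes ZO-1, had 1791 and 2309 when sparse and 3945 and 3567 when confluent and was not called (0.87). Among 21 tested adherens junction genes 4 rose, 2 fell and the median was 0.21. Ptprb, the phosphatase VE-PTP that binds VE-cadherin, rose from 1087 and 1151 to 4974 and 4948 (2.10). Pcdh12, a protocadherin of endothelium, rose from 29.6 and 30.3 to 417 and 313 (2.36), with 0.82 by its other probe set. Jup, plakoglobin, which links cadherins to intermediate filaments, rose from 1202 and 1329.6 to 3508 and 3314 (1.40). Cdh2, N-cadherin, which endothelial cells use towards mural cells, fell from 1406 and 1533 to 593 and 546 (-1.29). Ptprk, a phosphatase of cell contacts, fell from 1456 and 1740.3 to 331 and 401 (-1.99). The catenins Ctnnb1 (0.53), Ctnnd1 (0.70) and Ctnna1 (0.29) were not called.

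Notch genes showed 4 rises and 0 falls among 18 tested members, with a median of 0.36, and 2 rises with an offset of 200. Dll1, a Notch ligand, went from 145 and 136 to 1555 and 1307 (log2 change 2.95) and the receptor Notch1 from 886 and 902 to 2156 and 2129.9 (1.22). The arterial ligand Dll4 was dim at both densities, with 113 and 85.1 when sparse and 213 and 57.3 when confluent (0.18). Of the target genes, Hes1 (0.66), Hey1 (0.20) and Nrarp (-0.58) were not called.

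Interferon response genes rose as a group. Interferon-stimulated genes are switched on through a repeat of GAAA in their promoters, called the interferon-stimulated response element (ISRE), and they encode antiviral proteins and guanylate-binding GTPases. Of 47 tested members 33 rose, 1 fell and 13 were not called, with a median of 1.64. The list's median signal went from 179.7 and 148.6 on sparse arrays to 964 and 892 on confluent arrays. For 30 of the 33 a rise was also called in VEC-null cells, against 54.8% of all genes that rose in VEC-positive cells. Of all tested genes 9.23% rose in VEC-null cells. To show the element beside the values, stretches upstream of the start site are given for 4 members with large rises, from RefSeq promoter windows of GRCm38.p6 that run from 250 bases before to 50 after each start. Capitals mark matches to the ISRE, searched on both strands as GAAA, any 2 bases and GAAA, so that a match on the other strand reads TTTC, any 2 bases and TTTC, and overlapping matches are joined.
Ifit1: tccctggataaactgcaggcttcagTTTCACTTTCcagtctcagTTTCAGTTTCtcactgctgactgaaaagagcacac
Ifit3: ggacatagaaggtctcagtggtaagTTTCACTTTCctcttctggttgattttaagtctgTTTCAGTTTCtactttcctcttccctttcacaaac
Gbp3: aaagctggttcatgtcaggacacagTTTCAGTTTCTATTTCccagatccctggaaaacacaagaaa
Gbp7: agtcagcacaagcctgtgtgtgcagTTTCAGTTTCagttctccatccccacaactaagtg
They lie at chr19:34640760-34640838, plus strand for Ifit1, chr19:34583348-34583441, plus strand for Ifit3, chr3:142559974-142560039, plus strand for Gbp3 and chr3:142530258-142530317, plus strand for Gbp7. The motif was found in 17 of the 26 risen members that had a window (65.4%), against 3.53% of 7481 tested genes with a window. Genes of this kind are known for the element, and members that were not called were not counted. The share therefore follows from the choice of genes and does not bear on the change with density. A match is a description of the letters in the window and does not show that a factor bound there.

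Ifit1, which binds viral RNA, gave 56.8 and 36.3 when sparse and 1906 and 1781 when confluent (log2 change 4.30, SE 0.12, limma adjusted p 1.4e-08). Its neighbour Ifit3 gave 119 and 124 when sparse and 2013 and 2319.9 when confluent (3.69). Gbp3 and Gbp7 encode guanylate-binding proteins of the gene cluster on chromosome 3. Gbp3 rose from 114 and 90.5 to 2557 and 2298 (4.02). Gbp7 rose from 66.3 and 43.8 to 1149 and 1163 by its representative probe set (3.53); its probe set on chip B gave 0.67. Oasl2, of the oligoadenylate synthetase family, rose from 38 and 47.7 to 2157 and 2132 (4.56). The transducer Irf9 rose from 392 and 295 to 1479.8 and 2037 (2.19), and Usp18, which removes ISG15 and dampens the receptor, from 22 and 42 to 634 and 569.6 (3.0). Bst2, tetherin, was the brightest member when confluent, at 15096 and 14797 against 3939 and 3822 (1.93). Stat2 (0.70) and Irf7 (0.59) were not called. Ifi47, an immunity-related GTPase gene, fell from 261 and 258 to 113 and 94.5 (-1.01), but its change was -0.93 without the second confluent copy and -0.60 with an offset of 200.

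Antigen presentation and acute phase genes moved the same way. In the MHC class I list 7 of 15 tested members rose, 0 fell and the median was 0.90. H2-K1, a classical class I heavy chain, rose from 648 and 689 to 5567 and 5861 (log2 change 3.0), and H2-D1, another, from 2309 and 1971 to 6353 and 6471 (1.57), though probe sets of class I genes can share transcripts with close homologues. Tapbp, tapasin, which loads peptides, rose from 648 and 744 to 4490.1 and 4559 (2.62), and its other probe sets gave 2.17 and 0.93. The light chain B2m was bright at both densities, 5901 and 8284 when sparse and 11556 and 14836 when confluent, and not called (0.90). In the complement and acute phase list 7 of 12 tested members rose and 0 fell, with a median of 1.29, and 4 rose with an offset of 200. Lbp, which presents bacterial lipopolysaccharide, rose from 364 and 370 to 4126 and 4179 (3.33). Lcn2, an iron-siderophore binder, rose from 428 and 519.7 to 3477 and 3135 (2.68), with 0.44 by another probe set. Among 18 tested chemokines and cytokines 3 rose and 3 fell. Cx3cl1, the membrane-bound chemokine fractalkine, rose from 196 and 164 to 1213 and 1195 (2.45). Ccl2, which attracts monocytes, fell from 5397 and 5135 to 1973 and 1844 (-1.44). The list median was -0.28, and 1 gene fell with an offset of 200. Of 21 tested leukocyte adhesion genes 6 rose and 3 fell, with a median of 0.40. A filter at the 75th percentile of signal left 3 rises, and an offset of 200 left 1 fall. Icam1, a counter-receptor for leukocyte integrins, rose from 433 and 377 to 1811 and 1632 (1.96). Icam2, its constitutive homologue, rose from 826 and 858 to 4181 and 4433 (2.29). Cd44, the hyaluronan receptor, fell from 1231 and 1040.1 to 118 and 145 (-2.71). Vcam1 was at 309 and 431 when sparse and 285 and 261 when confluent without being called (-0.36).

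Genes of cholesterol synthesis fell along much of the pathway. The pathway turns acetyl-CoA into mevalonate, farnesyl diphosphate, squalene and cholesterol, and its genes are driven together by the transcription factor SREBP-2 when membrane sterol is low, with NF-Y as a partner that binds CCAAT boxes. Of 23 tested members 14 fell, 0 rose and 9 were not called, with a median of -1.32, against 7.32% of all tested genes that fell. The list's median signal went from 1215 and 1294 on sparse to 290.4 and 314.7 on confluent arrays. The promoters of 4 fallen members are shown because 14 members of the list fell. Capitals mark CCAAT on either strand (ATTGG on the other), except in the second Hmgcs1 stretch, where they mark the sterol regulatory element TCACNCCAC.
Idi1: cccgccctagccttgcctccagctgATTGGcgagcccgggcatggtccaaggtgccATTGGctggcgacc
Msmo1: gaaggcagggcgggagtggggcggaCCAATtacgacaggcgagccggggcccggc
Lss: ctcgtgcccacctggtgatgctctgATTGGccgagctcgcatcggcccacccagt
Hmgcs1: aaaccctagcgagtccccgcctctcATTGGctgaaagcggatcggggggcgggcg
Hmgcs1: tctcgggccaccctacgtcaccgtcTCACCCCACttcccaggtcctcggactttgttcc
These are RefSeq windows of GRCm38.p6 at chr13:8885536-8885605, plus strand (Idi1), chr8:64733604-64733658, minus strand (Msmo1), chr10:76531518-76531572, plus strand (Lss), chr13:119690281-119690335, plus strand and chr13:119690189-119690247, plus strand (both Hmgcs1). A CCAAT box was found in 11 of the 11 fallen members with a window, against 43% of 7481 tested genes with a window. Members that were not called were not counted, so this share does not bear on the fall either. The sterol regulatory element in this spelling was found in 1 of the 11 (9.09%), Hmgcs1, against 1.39% of the tested genes, and windows without it lack only these letters.

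**Figure D3:**
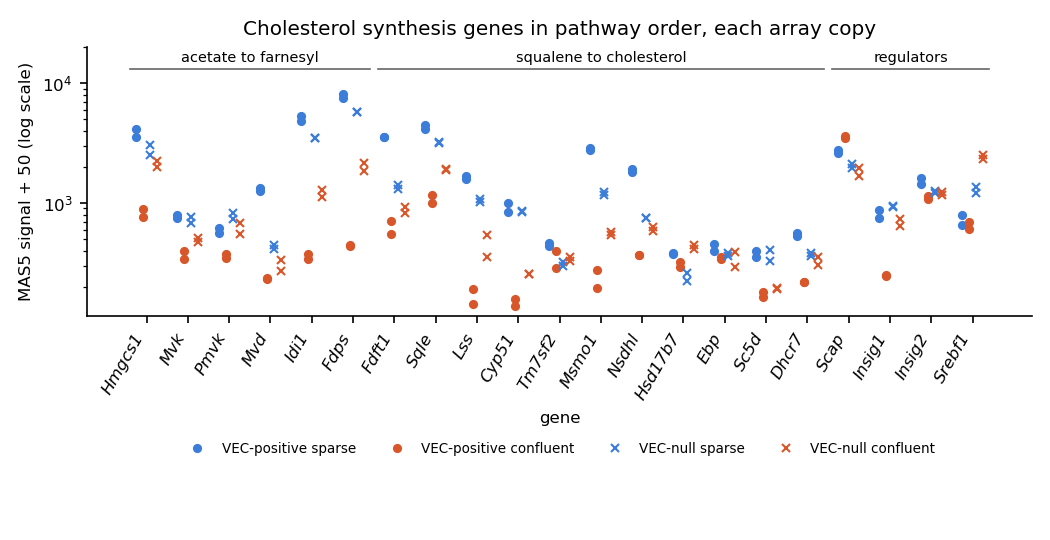
MAS5 signal plus 50 (log axis) of 21 cholesterol synthesis genes in pathway order, with their regulators at the right. Circles are VEC-positive and crosses VEC-null array copies, blue for sparse and orange for confluent; for Fdps the VEC-positive copies go from 8113 and 7465 to 395 and 391 and the VEC-null copies from 5705 and 5729 to 1789 and 2091.

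At the head of the pathway Hmgcs1, which makes HMG-CoA, fell from 4094 and 3493 to 846 and 709 (log2 change -2.22). Of the 2 kinases that follow, Mvk fell (-1.05) and Pmvk was not called (-0.70). Mvd, the decarboxylase after them, fell from 1214 and 1294 to 182 and 187 (-2.47). Idi1, the isomerase of isopentenyl diphosphate, fell from 5258 and 4769 to 327 and 292 (-3.81). Fdps, which makes farnesyl diphosphate, showed the largest fall of the list, from 8113 and 7465 to 395 and 391 (-4.14, SE 0.09, limma adjusted p 4.4e-09). On the squalene branch Fdft1, squalene synthase, fell from 3514 and 3473 to 655 and 505 (-2.50). Sqle, which epoxidises squalene, fell from 4413 and 4080.5 to 941 and 1108 (-2.0), and Lss, which closes the sterol ring, from 1540.2 and 1643 to 93.5 and 143 (-3.30). Of the enzymes that trim the ring, Cyp51 (-2.64), Msmo1 (-3.62), Nsdhl (-2.36), Sc5d (-1.12) and Dhcr7 (-1.32) fell, while Tm7sf2 (-0.42), Hsd17b7 (-0.30) and Ebp (-0.29) were not called. Among the regulators Insig1, which retains SREBP in the endoplasmic reticulum and is itself a target, fell from 692 and 824 to 196 and 202 (-1.70). Scap (0.39), Insig2 (-0.46) and Srebf1 (-0.14), which encodes SREBP-1, were not called. The fall was larger in VEC-positive than in VEC-null cells for 11 of the 14 by the limma test of the difference. That test called 198 of the 674 genes that fell in VEC-positive cells in that direction, and 6.23% of all tested genes. The 14 were chosen by their fall in VEC-positive cells, which is 1 term of the difference. For Fdps the difference was -2.60 (SE 0.13, limma adjusted p 7.7e-06).

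Fatty acid genes were less uniform, with 6 of 27 tested members lower, 0 higher and a median of -0.24. Without the first sparse, the second sparse or the second confluent copy, 1 member was called higher. Scd1, which desaturates stearate, fell from 3211 and 2399 to 308 and 325 (log2 change -2.95). Elovl6, which lengthens palmitate, fell from 812 and 696 to 97.4 and 56.3 (-2.68). Acss2, which makes acetyl-CoA from acetate, fell from 430.3 and 378 to 39.6 and 30.6 (-2.42). Scd2, the brighter desaturase, was not called at 6279 and 9183 when sparse and 6007 and 6972 when confluent (-0.23). Fasn fell from 2579 and 3002 to 1396 and 1193 (-1.08), and was at -0.97 and not called without the second sparse or without the second confluent copy.

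Glycolysis genes fell in 11 of 20 tested members, while 1 rose and 8 were not called, with a median of -1.16. Hk2, an inducible hexokinase, fell from 1682 and 1597 to 206 and 169.7 (log2 change -2.83), and Hk1, the housekeeping form, from 3674 and 2884 to 723 and 532 (-2.30). Slc2a1, the glucose transporter GLUT1, fell from 657 and 755 to 225 and 158 (-1.66). Pgk1, which yields ATP from bisphosphoglycerate, fell from 8798 and 8494 to 2704 and 3165 (-1.55), and Ldha, lactate dehydrogenase, from 12985 and 12453 to 5341 and 4904 (-1.30). Fbp1, the gluconeogenic bisphosphatase that opposes this flux, rose from 48.9 and 58 to 1746 and 1507 (4.02, SE 0.17, limma adjusted p 1.2e-07). The Gapdh control, which belongs to the same pathway, was lower on the confluent arrays as given above. Whether that and these falls share a technical part was not tested.

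ATF4 targets, which supply amino acids when they run short or when protein folding is stressed, fell in 12 of 27 tested members and rose in 1, with a median of -0.94. Atf4 itself fell from 4391 and 4608 to 1372 and 1342 (log2 change -1.69). Slc7a5, which imports large neutral amino acids, fell from 4157 and 4522 to 850.4 and 809 (-2.32), and Slc7a11, the cystine transporter, from 951 and 874 to 149 and 163 (-2.22). Chac1, which degrades glutathione, fell from 3765 and 3757 to 819.7 and 829 (-2.12), and Psph, of serine synthesis, from 1524 and 1471 to 371 and 402 (-1.83). All 12 falls were called in VEC-null cells too, against 39.9% of all genes that fell in VEC-positive cells. Ddit4, an inhibitor of mTORC1, was the member that rose, from 540.5 and 393 to 2106 and 1948 (2.02). Of 24 tested one-carbon and nucleotide genes 4 fell and 0 rose (median -0.52), led by Nme2 (-1.52), a nucleoside diphosphate kinase, and Ctps (-1.36), CTP synthase. Of 36 tested heat shock proteins and chaperones 9 fell and 0 rose (median -0.73). Hspe1, the mitochondrial cochaperonin, fell from 2356 and 2221 to 752 and 627 (-1.66) and Hspa1b, an inducible Hsp70, from 1776 and 2072 to 546 and 632 (-1.63). Of the cytosolic chaperonin subunits Cct7 (-1.44), Cct4 (-1.16) and Cct3 (-1.10) fell.

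Several genes of bright housekeeping families fell in confluent VEC-positive cells. Of 24 tested cytosolic ribosomal protein genes 12 fell and 0 rose, with a median of -0.98. With quantile normalisation in place of the authors' scaling 6 fell and the median was -0.81. Rps3, of the small subunit, fell from 11170 and 12054 to 4089.5 and 3939.6 (log2 change -1.52), and Rpl13a, of the large subunit, from 2261 and 2493 to 531 and 535 (-2.06). Rpl41 was at 23528 and 25764 when sparse and 19022 and 21346 when confluent and not called (-0.29). None of the 12 was called lower in VEC-null cells, where the list median was -0.08 and 7.84% of all tested genes fell. Of all genes that fell in VEC-positive cells, 39.9% were called lower in VEC-null cells too. The lines differed for 9 of the 12. In either direction they differed for 213 of the 674 genes that fell in VEC-positive cells and for 12.7% of all tested genes. Ribosomal protein genes have many processed pseudogenes, so that a probe set can also read those. Respiratory chain genes fell in 11 of 54 tested members, rose in 1 and had a median of -0.55. With an offset of 200 the number that fell was 6. Uqcr11, a small subunit of complex III, fell from 2238 and 2539 to 665 and 568 (-1.87), and Atp5o, of the ATP synthase stalk, from 3048 and 2696 to 1029 and 743 (-1.66). Of 29 tested proteasome genes 5 fell and 0 rose (3 with an offset of 200), with a median of -0.76, led by Psmd8 of the regulatory particle (-1.49). Across all genes the median change was 0.11 in the lowest quartile of mean signal and -0.05 in the highest quartile, and no comparison at matched level was made. The lower Gapdh and actin control signals of the same arrays move with these families, and their part was not tested.

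Targets of YAP and TEAD fell, with 8 of 17 tested members lower, 0 higher and a median of -0.78. Ccn2, a matricellular growth factor, fell from 10768 and 13725 to 741 and 651 (log2 change -4.04), and Ccn1, its homologue, from 2644 and 2879 to 181 and 200.3 (-3.55). Ankrd1, an ankyrin repeat protein induced by stretch, fell from 1849.6 and 2059.6 to 80.4 and 67.9 (-4.01). Wwc1, which encodes the Hippo regulator KIBRA, fell from 2248 and 2251 to 142 and 158 (-3.52). Amotl2, an angiomotin that binds YAP, fell from 2124 and 1931 to 846 and 850.3 (-1.21). The kinase gene Lats2 was bright and not called, with 5870.5 and 5291 when sparse and 5639.5 and 5011 when confluent (-0.07).

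Genes that report or restrain ERK signalling fell in 8 of 17 tested members and rose in 0, with a median of -0.70. Without the second confluent copy 1 member was called higher. Dusp5, a nuclear ERK phosphatase, gave 2736 and 3499.9 when sparse and 54.9 and 222 when confluent (log2 change -4.22). The value was -3.53 without the first confluent copy and -4.91 without the second. Dusp6, the cytosolic ERK phosphatase, fell from 2228 and 2559 to 801 and 938 (-1.41). Spry2, a sprouty inhibitor of receptor signalling, fell from 2413 and 2385 to 712 and 708 (-1.69). Dusp6 and Spry2 were not lower in confluent VEC-null cells (0.86 and 0.04), and the lines differed by -2.27 (limma adjusted p 3.4e-05) and -1.73 (limma adjusted p 6.7e-05). The Fos family gene Fosl1 fell from 1849.9 and 1940.4 to 310.5 and 269 (-2.52). Of 19 tested immediate early genes 6 fell and 1 rose, with a median of -0.11, and 2 rose without the first sparse, the second sparse or the first confluent copy. Myc fell from 1301 and 1390.2 to 194 and 183 (-2.55) and Ier3, an early response gene tied to survival, from 6914 and 7797 to 784 and 820.5 (-3.12). Egr1 (0.38) and Fosb (0.13) were not called. Of 8 tested targets of beta-catenin and TCF 4 fell, namely Cd44, Bmp4, Myc and Ccnd1 (-1.76), and the median was -1.04. Without the first confluent copy 1 was called higher. Lef1 (0.73), Notum (-0.16) and Apcdd1 (-0.32) were not called.

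In the TGF-beta and BMP pathway, Tgfb1 and its receptor Tgfbr2 rose, while Tgfb2, Bmp4, the activin and BMP traps Fst and Grem1, and Id1 and Id3 fell. Of 34 tested members 5 rose, 10 fell and 19 were not called, with a median of -0.15. With an offset of 200 3 rose, with an offset of 16 9 rose, and a filter at the 75th percentile left 3 rises and 6 falls. Tgfb1, the main ligand, rose from 1049 and 898 to 3390 and 4149 (log2 change 1.90), and its type II receptor Tgfbr2 from 1196 and 1184 to 7333 and 6326 (2.47). A second ligand gene, Tgfb2, fell from 497 and 555 to 138 and 189.9 (-1.44), and Ltbp1, which holds latent TGF-beta in the matrix, from 366 and 416 to 162 and 166 (-1.04). Bmp4, a BMP ligand, fell from 2174 and 2140.3 to 282 and 304 (-2.69), and Bmpr1a, a BMP receptor, fell from 1313 and 679 to 187 and 93.5 (-2.43). Inhba, the activin A subunit, fell from 1076 and 1184 to 112 and 136 (-2.76). Fst, follistatin, which traps activin, fell from 5769 and 6018 to 114 and 95.7 (-5.26, SE 0.12, limma adjusted p 4.3e-09), and Grem1, a BMP trap, from 464 and 287 to 37.8 and 39 (-2.24). The BMP targets Id1 and Id3, inhibitors of helix-loop-helix factors, fell. Id1 went from 761 and 878 to 287 and 257 (-1.43) and Id3 from 1052 and 1074 to 316 and 280.2 (-1.68). Id2, of the same family, had 466 and 566 when sparse and 373 and 307 when confluent and was not called (-0.54). In VEC-null cells Id1 and Id3 were not lower when confluent (0.35 and 1.19), and the differences between the lines were -1.78 (limma adjusted p 0.00012) and -2.87 (limma adjusted p 2.7e-05). The inhibitory Smad gene Smad6, also a BMP target, fell from 443 and 377 to 163 and 143 (-1.18).

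**Figure D4:**
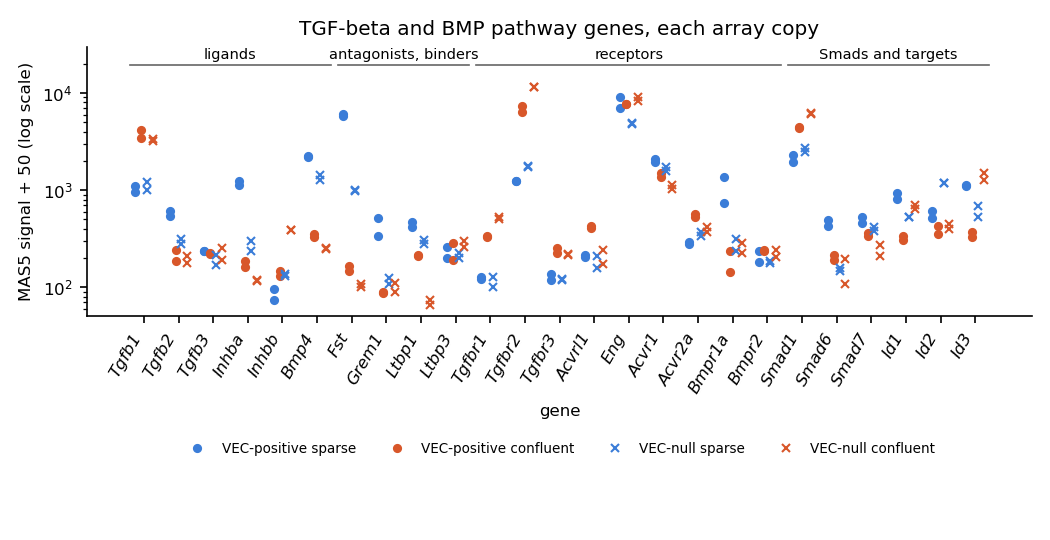
MAS5 signal plus 50 (log axis) of 25 TGF-beta and BMP pathway genes, grouped by role. Circles are VEC-positive and crosses VEC-null array copies, blue for sparse and orange for confluent; Id3 goes from 1052 and 1074 to 316 and 280.2 in VEC-positive cells and from 639 and 481 to 1223 and 1452 in VEC-null cells.

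Few cell cycle genes passed the threshold. Of 42 tested DNA replication genes 2 rose (Slbp 1.30, Fen1 1.08), 0 fell and 40 were not called, with a median of 0.43. Without the first confluent copy Fen1 was at 0.99 and 1 gene rose. The change was above 0 for 34 of the 42, whereas in VEC-null cells it was above 0 for 5 and the median was -0.60. Over all tested genes the median was 0.04 in VEC-positive and -0.01 in VEC-null cells. Mcm3, a subunit of the replicative helicase, had 1754 and 1464 when sparse and 2487 and 2518 when confluent (0.63), against 3361 and 4161 when sparse and 2012 and 1769.7 when confluent in VEC-null cells (-0.97), and the lines differed by 1.60 (limma adjusted p 0.00022). Of 47 tested mitosis genes 1 rose (Nusap1 1.18, with 0.42 and 0.81 by its other probe sets), 1 fell (Cks1b -1.09) and 45 were not called, with a median of 0.27. Without the first confluent copy 2 rose, and without the second sparse copy none fell. Top2a, which untangles chromosomes, had 1055 and 1234 when sparse and 2043 and 1769.8 when confluent (0.71), against 2119 and 1929.9 when sparse and 946 and 1050.4 when confluent in VEC-null cells (-0.99), a difference of 1.70 (limma adjusted p 0.00011). Mki67, a marker of cycling cells, had 1282 and 1250.3 when sparse and 2213 and 1889 when confluent (0.67), and VEC-null cells had 2205 and 2018 when sparse and 1331 and 1193 when confluent (-0.72). Promoters of this list commonly hold CCAAT boxes and the cell cycle homology region TTTGAA, and of the 37 members with a window 29 (78.4%) held the first and 26 (70.3%) the second on either strand, against 43% and 14.1% of the tested genes with a window. In the VEC-null line 16 mitosis genes fell, and the list median was -0.86. Members of these lists vary together, so the counts are not independent.

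The cyclins that sense growth factors moved apart. Ccnd1, cyclin D1, fell from 9169 and 8901 to 2558 and 2718 (log2 change -1.76) and its kinase Cdk6 from 6250 and 6739 to 2486 and 2824 (-1.28). Ccnd3 rose from 914 and 646 to 1993 and 2240.2 (1.40), with 0.08 by its other probe set. Cdk2 rose from 649.7 and 576 to 1563 and 1451 (1.23). The median of these 7 genes was -0.16, and 0.28 with quantile normalisation. Of 26 tested growth arrest genes 5 rose and 3 fell, with a median of 0.23, and 3 rose with an offset of 200. Cdkn2c, the CDK4 and CDK6 inhibitor p18, rose from 706 and 832 to 1988 and 1751 (1.23), while Cdkn2b, its homologue p15 and a TGF-beta target, fell from 1196 and 1266 to 247 and 257 (-2.08). Cdkn1a, p21, was at 3335 and 3382 when sparse and 4779 and 4826 when confluent and not called (0.51). Among 18 tested FoxO targets 6 rose and 4 fell, with a median of 0.18. The list does not part targets that FoxO activates from those it represses, so these counts give no direction of FoxO activity. Besides Cldn5, Txnip, which restrains glucose uptake, rose from 845 and 845 to 3302 and 3145 (1.87), with 0.17 by its other probe set, and Sesn1, a stress sensor, from 194 and 217 to 648 and 651 (1.46). Cited2, a CBP-binding coregulator, fell from 6456 and 6974 to 647 and 539 (-3.40). The FoxO site GTAAACA, sought on both strands, was found in the windows of Sesn1, Txnip, Bcl2l11 and Btg1 and not in that of Cldn5. These are 4 of the 6 risen members (66.7%), against 3.06% of the tested genes with a window. Members that did not rise were not counted, so the share does not bear on the rise. The rise of Btg1 (1.03) was 0.95 without the first confluent copy and 0.98 with an offset of 200, neither of them called.

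More basement membrane genes rose than fell. Of 20 tested members 6 rose and 2 fell, with a median of 0.52. Col15a1, a collagen at the outer face of vessel basement membranes, rose from 4.3 and 31.7 to 977 and 1104 (log2 change 4.03). Lama4, the laminin chain of endothelium, rose from 614 and 690.5 to 3847 and 3807 (2.47), and Nid2, a linker, from 39.8 and 58.6 to 535 and 450.3 (2.45). Its homologue Nid1 fell from 564 and 767 to 149 and 106 (-2.01), and Fbln2, an elastic fibre protein, from 900 and 858 to 146 and 119.9 (-2.35). The type IV collagens Col4a1 and Col4a2 were bright at both densities and not called (0.13 and 0.51). Among 18 tested matricellular proteins and proteoglycans 4 rose and 4 fell (median 0.03). Bgn, the proteoglycan biglycan, rose from 292 and 238 to 2639 and 2628 (3.10), and Tnc, tenascin C of wound edges, fell from 3766 and 3427 to 418 and 369.8 (-3.04). Of 21 tested matrix proteases and inhibitors 6 rose and 3 fell (median 0.32). Mmp14, a membrane-bound collagenase, rose from 1025 and 1139 to 3569.8 and 3941 (1.75). Adam8, a sheddase, fell from 1474 and 1515 to 103 and 97.4 (-3.36), and the inhibitor Timp1 fell from 6561 and 6275 to 1831 and 1864 (-1.77). Of 16 tested fibrillar and other collagens and their modifying enzymes 2 rose and 2 fell, with 1 fall at an offset of 200; the median was 0.02, and -0.07 with quantile normalisation.

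Integrin and cytoskeleton genes moved by member. Of 11 tested integrin subunits 4 rose and 1 fell, with a median of 0.25. With an offset of 200 2 rose and 0 fell, and 2 fell without the first sparse or the second confluent copy. Itgb4, the laminin-binding beta 4 chain, rose from 52.1 and 78.3 to 342 and 396 (log2 change 1.87), and Itga6, its partner, from 914 and 1002 to 2597 and 2388 (1.33). Itgb1, the common beta chain, was at 12844 and 13495 when sparse and 12794 and 11435 when confluent (-0.12). Of 33 tested actin and smooth muscle genes 7 fell and 2 rose, with a median of -0.41. Cnn2, a calponin, fell from 2671 and 2807 to 476 and 426 (-2.48), Tpm1, a tropomyosin, from 3575 and 3557 to 1064 and 1113 (-1.67), and Actn1, the alpha-actinin of stress fibres, from 8128 and 8387 to 2708 and 2674 (-1.60). Smtn, smoothelin, rose from 614 and 599 to 2016 and 1993 (1.65).

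Genes of the insulin-like growth factor axis rose in 4 of 10 tested members and fell in 2, with a median of 0.39, and 1 fell with an offset of 200. Igf1, the circulating and tissue growth factor, rose from 194 and 224 to 4925 and 4442 (log2 change 4.19, SE 0.12, limma adjusted p 1.3e-08), and its other probe sets gave 1.79, 4.14 and 4.12. Igfbp4, a binding protein, rose from 697 and 558 to 3286 and 3264 (2.30), with 0.98 by its other probe set. Irs1, the docking protein behind the insulin and IGF receptors, fell from 575 and 654 to 96.1 and 106 (-2.14). Of 17 tested imprinted genes 4 rose and 1 fell (median 0.29), and with an offset of 200 the counts were 2 and 0. Plagl1, a growth-restraining zinc finger factor, rose from 48.5 and 55.5 to 458 and 382 (2.20), against 99.6 and 102 when sparse and 46.4 and 52.4 when confluent in VEC-null cells, a difference of 2.80 (limma adjusted p 6.6e-05).

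The aryl hydrocarbon receptor, a ligand-activated transcription factor, and its repressor both rose. Ahr went from 117 and 140.3 to 1428 and 1360.4 (log2 change 3.02) and Ahrr from 20.1 and 27.7 to 517 and 564 (3.0). They were 2 of 8 tested members of that axis (1 with the filter at the 75th percentile), 0 fell, the median was 0.17, and the target Cyp1b1 was not called (0.62). Of 11 tested Kruppel-like factors 1 rose and 2 fell (median 0.18). Klf11 rose from 403 and 464 to 2371 and 2545 (2.38), Klf5 fell from 590.4 and 634 to 136 and 114 (-1.92), and Klf6 fell from 4026 and 3622 to 1252 and 1491 (-1.45). Klf2, which laminar flow induces in endothelium, was at 241 and 213 when sparse and 477 and 404 when confluent and not called (0.82). Of 4 tested connexins and pannexins only Panx1 fell (-1.32, and -0.99 with an offset of 200), and the median was -0.21. Gja1, connexin 43, was near the lowest signals in VEC-positive cells, with 25.3 and 22.1 when sparse and 8.2 and 33.8 when confluent, against 8007 and 7903 when sparse and 2270.1 and 2308 when confluent in VEC-null cells. Of 15 tested neuronal genes 1 rose and 3 fell (median 0.10), and none rose with the filter at the 75th percentile. The neurofilament gene Nefh rose from 46.6 and 27 to 303 and 306 (2.04), Uchl1, a deubiquitinase of neurons, fell from 1946 and 1904 to 254 and 318 (-2.56), and Nrn1, neuritin, from 4434 and 4639 to 1002 and 979 (-2.14).

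Markers of other cell types were examined because the culture could hold such cells. Of 28 mesothelial and epithelial markers on the arrays, 22 were below the chip's median signal in both VEC-positive groups, and their summed signal was 7493 and 7767 in sparse and 1989 and 2341 in confluent cells. Of 7 tested members 4 fell and 0 rose, and Gpm6a (0.38), Cdh1 (0.31) and Krt17 (0.15) were not called. Besides Msln, Krt19, an epithelial keratin, fell from 862 and 948 to 4.2 and 7 (log2 change -4.10) and Anxa8, an annexin of epithelia, from 1194 and 1222 to 75.8 and 76.6 (-3.32). The desmosomal plakophilin gene Pkp2 fell from 661 and 623 to 247 and 194 (-1.36), with -1.57 and -0.29 by other probe sets. Krt19 and Anxa8 were near the lowest signals in VEC-null cells at both densities, with 3.3 and 4.5 when sparse and 5.3 and 4.3 when confluent for Krt19 and 40.1 and 46.5 when sparse and 45.9 and 38.5 when confluent for Anxa8. The summed signal of 22 pericyte and fibroblast markers was 14794 and 16401 in sparse and 9921 and 10192 in confluent cells, and 14 of them were below the median signal in both groups. S100a4, a calcium-binding protein of fibroblasts and motile cells, fell from 8708 and 10245 to 1676 and 1760.4 (-2.43), while Snai2, a repressor of epithelial genes, rose from 907 and 886 to 2242 and 2335 (1.30). The drop of S100a4 alone was larger than that of the summed signal, so the sum does not show a fall of the other markers. Of the 10 tested pericyte and fibroblast markers 2 rose (1 with an offset of 200) and 2 fell, and the median was 0.17. Of 6 tested lymphatic markers 3 rose and 0 fell, and the summed signal of the 9 on the arrays went from 3199 and 2868 to 8834 and 8505. Of these 9, 3 were below the median signal in both groups, namely the defining markers Prox1, Pdpn and Lyve1. Prox1 had 6.2 and 3.1 when sparse and 6.0 and 7.5 when confluent, and Pdpn had 13.1 and 23 when sparse and 17.3 and 4.1 when confluent. Lyve1 had 111.5 and 112.3 when sparse and 147.6 and 100.6 when confluent. Most of the summed signal in confluent cells came from Flt4 and Stab2, which are not restricted to lymphatic endothelium. Stab2, a hyaluronan scavenger receptor of lymphatic and sinusoidal endothelium, gave 128 and 370.5 when sparse and 3075 and 3179.8 when confluent (3.54), and its change was 2.92 without the first sparse copy and 4.16 without the second. No embryonic stem cell or blood cell marker was called among the 5 and 6 tested, though without the second sparse copy 1 stem cell marker was called higher. Embryonic stem cell markers (12 of 17 below the median signal) summed to 4127 and 4671 in sparse and 3842 and 3795 in confluent cells. Blood cell markers (19 of 24 below) summed to 2071 and 2212 in sparse and 1960.2 and 2511 in confluent cells. What part the falls of Msln, Krt19, Anxa8, Pkp2 and S100a4, or any cells that they mark, had in other changes was not tested.

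About as many genes changed with density in VEC-null cells, and the sets overlapped in part. Over 9207 genes the density responses of the lines correlated at r 0.626, given as a description over genes measured on the same arrays. Of the 795 genes that rose in VEC-positive cells, 436 (54.8%) also rose in VEC-null cells, where 850 rose (9.23% of those tested) and these made up 51.3%. Of the 674 that fell, 269 (39.9%) also fell in VEC-null cells, which is 37.3% of the 722 that fell there (7.84%). Called in opposite directions were 2 of the risen and 6 of the fallen genes. The test of the difference between the lines called 1173 genes (12.7%), of which 599 moved more upwards in VEC-positive cells (6.51%) and 574 more downwards (6.23%). In a fit with the 4 cRNA samples as units and line as a term, 947 genes were called (10.3%). Of these, 564 were higher (6.13%) and 383 lower (4.16%) in confluent cells on average over the lines. They included 471 of the 795 and 305 of the 674. The fit takes 1 mean change over both lines, so a call does not show a change in each line. That fit has 1 residual degree of freedom per chip.

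**Figure D5:**
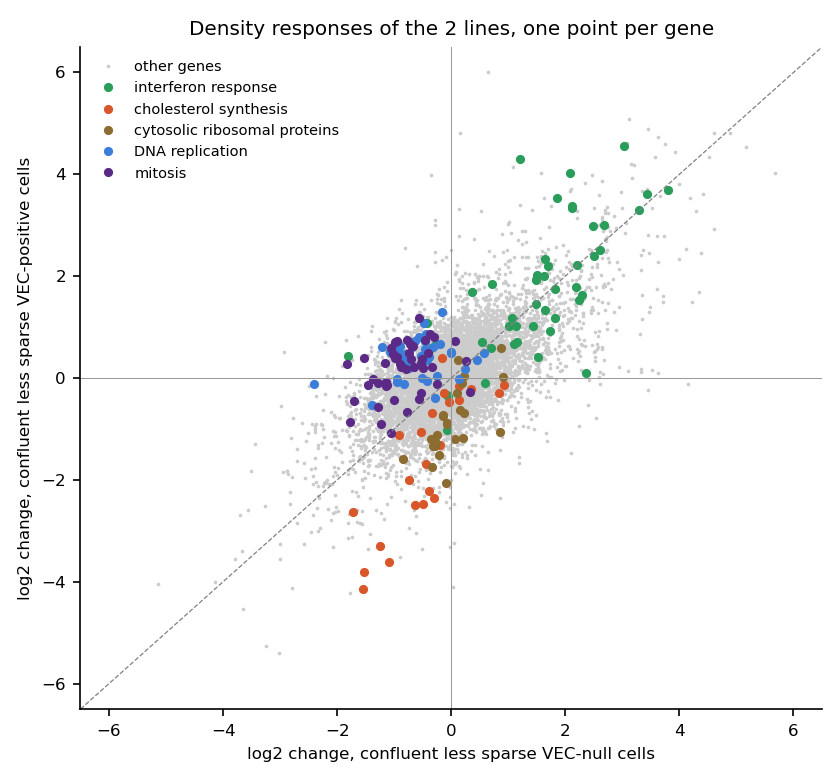
Change between confluent and sparse cells, as the difference of log2(signal + 50), in VEC-null cells (horizontal) and VEC-positive cells (vertical) for 9207 genes, 1 point a gene, with 5 lists coloured and the line of equal change dashed. Below the dashed line lie 22 of 23 cholesterol synthesis and 23 of 24 ribosomal protein genes, and above it lie 37 of 42 DNA replication and 45 of 47 mitosis genes. These are counts of side, called or not. Over all 9207 genes the difference between the lines had a median of 0.03 and quartiles of -0.39 and 0.45.

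The genes with the largest differences show where the VEC-positive response stood apart. Cldn5 had 13.6 and 10.2 in sparse and 78 and 23 in confluent VEC-null cells, so that the difference between the responses was 5.36 (SE 0.38, limma adjusted p 2.6e-05). Vwf was at 14.4 and 14.6 when sparse and 23.4 and 20.5 when confluent in VEC-null cells, a difference of 4.65 (SE 0.23). Lamb3, a laminin chain of epithelial type, rose from 58.1 and 26.7 to 1492 and 1308 in VEC-positive cells and had 38.5 and 32.2 when sparse and 15.6 and 17.5 when confluent in VEC-null cells, a difference of 4.35 (SE 0.28). The signal of Bgn was 219 and 253 when sparse and 215 and 159 when confluent in VEC-null cells (3.38). Il1r1, the receptor for interleukin 1, rose from 42.9 and 49.7 to 508 and 518 in VEC-positive cells and had 115 and 137 when sparse and 45.2 and 56.6 when confluent in VEC-null cells (3.35). Rgs2, a regulator of G protein signalling, rose from 181 and 145 to 3866 and 3577, against 136 and 106 when sparse and 398 and 241 when confluent (3.07). Ahrr, the repressor of the aryl hydrocarbon receptor, rose from 20.1 and 27.7 to 517 and 564, against 33.7 and 35.8 when sparse and 12.7 and 26.6 when confluent (3.29). For Ifit1 the VEC-null cells were already high when sparse, at 939 and 860.5, and reached 2173 and 2109.8, and the difference was 3.09. Zfp428, a zinc finger gene, was not called within VEC-positive cells (294 and 159 when sparse and 296 and 373 when confluent) and dropped in VEC-null cells from 960.4 and 1105 to 65.5 and 124 (3.45).

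In the other direction, several genes rose at confluence in VEC-null cells and were not called, or in the case of Upp1 fell, in VEC-positive cells. Gja4, connexin 37 of arteries, had 18.2 and 14.4 when sparse and 18.3 and 30.8 when confluent in VEC-positive and 13.8 and 10.6 when sparse and 674 and 648 when confluent in VEC-null cells, a difference of -3.35 (SE 0.27, limma adjusted p 4.6e-05). Btnl9, of the butyrophilin family, had 9 and 37.3 when sparse and 24.7 and 8.7 when confluent, against 6.9 and 9.5 when sparse and 935 and 1036 when confluent (-4.27). Postn, periostin, had 6.3 and 4.1 when sparse and 15.4 and 2.8 when confluent, against 14.4 and 7.5 when sparse and 704 and 706 when confluent (-3.54). The fibrillar collagen Col3a1 had 116 and 122 when sparse and 67.7 and 30.7 when confluent, against 176 and 285 when sparse and 1376 and 1754 when confluent (-3.34). Upp1, uridine phosphorylase, fell from 989 and 1024 to 344 and 317 in VEC-positive cells and went from 248 and 243 to 1127 and 1307 in VEC-null cells (-3.57), while its second probe set gave a change of 0.49 in VEC-positive cells. Dll4 and Notch4 were not called in VEC-positive cells, with 3.32 and 2.51 in VEC-null cells and differences of -3.14 (limma adjusted p 0.0027) and -2.18 (limma adjusted p 0.00011). For the Notch list as a whole 9 of 18 genes rose in VEC-null cells, against 4 in VEC-positive cells, and the medians were 1.02 and 0.36.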

How the data were processed

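RNA of 4 conditions was read on MG_U74Av2 and MG_U74Bv2 arrays, 2 technical copies of each cRNA sample per chip. The deposited values are linear intensities per probe set, and per the labels' protocols the authors computed them with MAS5 and scaled each array to 500. The median normalisation that the series text mentions could not be seen in the tables. No detection calls were used. Probe sets were named through the platform annotation and RefSeq (GRCm38.p6). Of 24833 non-control probe sets 21414 had 1 symbol, 574 several and 2845 none, and only the first kind was named. The 66 control probe sets of each chip were left out.

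From log2(intensity + 50), limma 3.58.1 in R 4.3.3 fitted the 4 group means per chip with a mean-variance trend and contrasts for density in each line and for their difference. The number of arrays, 2 per group, limits the precision. Probe sets entered if 1 group mean was above the chip median (159.4 on chip A, 235.1 on chip B), which left 14246 probe sets and 9207 genes. Each gene is shown by 1 probe set, with chip A preferred and the brightest taken within a chip. Calls needed an adjusted p below 0.05 (Benjamini-Hochberg over both chips) and a change of at least 1.

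The genes named are the 3 markers, the 15 largest rises and falls, up to 6 called members per list and direction, the 10 largest differences between lines in each direction, and other list members given with their values. Members and the 48 lists were chosen with earlier results of these data known, so lists are described by counts and medians, and the promoter motifs were chosen in the same way. The motifs are ones known for their lists, so their shares describe the lists and do not bear on the changes with density. On simulated data for the VEC-positive comparison (13253 probe sets) the calls recovered 42.6% of 68 probe sets changed 2-fold, 89.4% of 66 changed 4-fold and 98.5% of 66 changed 8-fold, with 4 false calls. A 2-fold change lies on the threshold itself, which limits its recovery. The simulated spread was that between array copies, and 200 probe sets were changed, whereas 2190 were called in the data. The false calls therefore do not cover how cultures vary. Alternatives were the offset, the filter, quantile normalisation, the variance model, the arrays in the fit, a block for the replicate number and leaving out each copy. Figures were drawn with matplotlib 3.10.9.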

Additional observations from a re-analysis of the deposited data

Results flagged for a closer look

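A density response that differed between the lines was called by limma's interaction contrast, at adjusted p below 0.05 and a log2 difference of at least 1. It was called for 35 of 46 genes examined for it. These were the 30 largest changes and the 20 largest differences, of which 4 are in both sets. The genes were picked by the size of the values tested, so their share is set by the choice. Over all 9207 tested genes 12.7% were called. Every value here is the change between confluent and sparse cells in the VEC-positive line less that in the VEC-null line. The 10 largest positive differences over all genes were those of Cldn5 (5.36), Vwf (4.65), Lamb3 (4.35), Zfp428 (3.45), Bgn (3.38), Il1r1 (3.35), Ahrr (3.29), Ptprv (3.19), Ifit1 (3.09) and Rgs2 (3.07). The 10 largest negative ones were those of Btnl9 (-4.27), Krt19 (-4.12), Adamtsl1 (-3.70), Upp1 (-3.57), Postn (-3.54), Gja4 (-3.35), Col3a1 (-3.34), Anxa8 (-3.30), Stfa3 (-3.29) and Serpina3n (-3.22).

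Among the genes with the largest rises or falls in VEC-positive cells, the rise was larger than in VEC-null cells for Col23a1 (1.97), Gem (1.54), Oasl2 (1.54), Gpr182 (1.45) and Pde2a (1.11). For Ccn2 the fall was smaller in VEC-positive cells (1.11). The fall was larger in VEC-positive cells for Wwc1 (-2.62), Fdps (-2.60), Msmo1 (-2.52), Dusp5 (-2.44), Msln (-2.39), Plaur (-2.30), Idi1 (-2.28), Fst (-2.02) and Bdnf (-1.32). Another 9 genes whose differences are given in the report were chosen after their values were seen. Of these the differences were positive for Plagl1 (2.80), Top2a (1.70) and Mcm3 (1.60) and negative for Dll4 (-3.14), Id3 (-2.87), Dusp6 (-2.27), Notch4 (-2.18), Id1 (-1.78) and Spry2 (-1.73). Further named genes also passed this test and are not listed here. The differences of Ccn2, Gpr182 and Oasl2 were not called under every alternative, as given with the dependence on processing. These values compare 4 cRNA samples through technical copies.

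Ptprv, a receptor-type phosphatase gene, was dim in sparse VEC-positive cells (21.8 and 10.1) and at both densities in VEC-null cells (11.3 and 15.1 sparse, 27.5 and 11.7 confluent), and reached 582 and 634 in confluent VEC-positive cells. Stfa3, a stefin, which inhibits cysteine proteases, gave 933 and 639.8 in sparse and 54.3 and 23.3 in confluent VEC-positive cells, against 9.2 to 16.9 in VEC-null cells. Adamtsl1, a secreted ADAMTS-like protein, was at 55.8 and 78.5 in sparse and 48.4 and 49.1 in confluent VEC-positive cells, while VEC-null cells went from 51.5 and 47.6 to 1031 and 1056. Serpina3n, a serine protease inhibitor, went from 56.7 and 46.3 to 982 and 964 in VEC-null cells and had 38.5 and 145 when sparse and 132 and 60.8 when confluent in VEC-positive cells.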

How the results depend on the processing

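With an offset of 200 the VEC-positive comparison gave 691 probe sets higher and 614 lower (1162 and 1028 with 50), the difference between the lines gave 480 higher and 537 lower (842 and 903), and the fit over both lines gave 342 lower (578). Of the 2190 probe sets called in VEC-positive cells, 1304 (59.5%) were called the same way with that offset, 2177 with an offset of 16, 1982 with quantile normalisation, and 1935 to 1954 when 1 of the 4 VEC-positive copies was left out. A larger offset shrinks the change of dim genes by construction, so counts of dim genes and the size of their changes rest on it. Leaving out 1 copy gave 1148 to 1240 probe sets higher and 1033 to 1073 lower. Chip A alone had 8.39% higher and 7.59% lower and chip B alone 7.93% and 6.85%, an alternative chosen after seeing the data, as was the comparison of list medians under quantile normalisation. Of 262 called genes of the naming rule followed through the alternatives, none reversed in VEC-positive cells, and 211 were called under all alternatives in which they were tested. Besides 45 genes with an offset of 200, Anxa2, Ccng2, Cd9, Psmd4, Rpl19 and Tagln2 were not called with quantile normalisation. Quantile normalisation moved the median of all probe sets by -0.02.

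The replicate numbers name array copies and pair nothing: deviations of same-numbered copies correlated at -0.057 to 0.080. With the replicate block 1166 probe sets were higher and 1026 lower, and 2184 of the 2190 calls were the same. Of the 44 calls of a difference between lines that were followed (35 among the largest changes and differences, and 9 others given in the report), 41 held under all alternatives in which they were tested, the exceptions being Ccn2 (1.11, but 0.54 with an offset of 200, 0.94 without the first sparse VEC-positive copy and 0.99 without the second sparse VEC-null copy), Oasl2 (0.52 with an offset of 200) and Gpr182. The difference of Gpr182 ranged from 0.96 to 1.57 over the 8 alternatives that ended its call, at limma adjusted p of 0.055 to 0.094. The test covers the spread between hybridisations of 1 cRNA sample per condition, so it cannot show how far separate cultures would differ. Without detection calls, signals near the lowest values have no order, and log2 changes against them depend on the offset.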
